A study of Mus musculus with 7 samples.

Results

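The collagen genes are all genes whose symbol has the form Col, a type number, a and a chain number, such as Col2a1. The gene lists of the libraries hold 44 of them among 30344 genes that every library lists under a unique symbol, and all 44 had UMIs. They were followed in the nose of the mouse embryo at embryonic day 14.5, when nasal cartilage, the first facial bone, dermis, vessels, nerves and epithelia lie side by side. Each of the 6 libraries used was a droplet-based 3-prime RNA library (10x Chromium) of dissociated cells. The 4 wild-type libraries (WT replicates 1, 2, 4 and 5) came from noses of CD1 IGS mice. The other 2, called Prokr2Cre libraries 1 and 2, came from a single suspension of a single nose of B6;SJL stock with the allele Prokr2em1(cre)Cfe and, at the ROSA locus, the reporter allele Gt(ROSA)26Sortm14(CAG-tdTomato)Hze (ProKR2iCre/R26tdTomato). In that nose Cre made from Prokr2, the gene of prokineticin receptor 2, switches on the red protein tdTomato. The suspension was split into a sorted and an unsorted part, and the sample labels do not say which library is which, so these 2 libraries were described singly and never averaged. WT replicate 3 was left out because 7386 of its barcodes recurred in WT replicate 4, while the highest overlap of any other pair was 34 barcodes. All suspensions were made with papain and collagenase and had been frozen.

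Collagens are the main structural proteins of the extracellular matrix. A molecule is a triple helix of 3 chains, either copies of a single chain or a fixed mixture of chains made by separate genes. Fibrillar collagens (types I, II, III, V, XI, XXIV and XXVII) build the fibres of bone, skin and cartilage. Type IV builds the sheet of basement membranes, types XV and XVIII sit at the edge of basement membranes, and types IX, XII, XIV, XVI, XIX, XX and XXII decorate fibres or join them to other matrix. Types XIII, XVII, XXIII and XXV span the cell membrane, and type VII anchors the epidermal basement membrane to the dermis.

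Cells were assigned to classes by markers that are not collagens, so that collagen UMIs (unique molecular identifiers, each standing for a captured transcript molecule) took no part in the assignment. A cell was assigned to a class when it held UMIs of at least 4 of the 8 markers of that class and at least 2 more than of any other class. Over the 4 WT libraries, 28565 cells passed the cell filter, and the classes held 2432 cartilage, 600 bone, 2735 dermis, 194 endothelium, 175 mural (pericytes and vascular smooth muscle), 295 glia, 2249 epithelium, 337 neuron and 292 immune cells. A further 4684 cells had at least 2 of Pdgfra, Prrx1, Prrx2 and Twist1 and few markers of any class, and are called other mesenchyme, and between 48.1% and 55.5% of cells per library stayed ungated. Some class markers were sparse in their own class. In bone, Dmp1, made by osteocytes, was in 0% to 19.9% of cells per WT library, Spp1 in 12.3% to 26.2% and Phex in 13.2% to 38.4%. In dermis, Dpt was in 2.48% to 24.6% of cells and Clec3b in 0.753% to 8.06%. Apcdd1 was in 11.85% of dermis cells of WT replicate 1 and in 60.97%, 58.3% and 72.2% of those of WT replicates 2, 4 and 5. Epyc was in 14.2% to 36.5% of cartilage cells, and Higd1b in 20% to 37.2% of mural cells. Other markers were common outside their class. The dermis markers Lum, Crabp1, Twist2 and Dkk2 were in up to 52.8%, 51.4%, 20.5% and 20.1% of cells outside dermis in a WT library. The bone marker Runx2 was in up to 46.5% of cells outside bone. Skeletal muscle reached the minimum of 10 cells in WT replicate 1 alone (59 cells).

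Levels are CPM, the UMIs of a gene scaled to 1000000 UMIs of its library and class. Because a 3-prime library counts each transcript once whatever its length, levels were not divided by gene length. A collagen is said to mark a class where its level there was above that in each of the other 10 classes in edgeR's quasi-likelihood test, with the largest of the 10 p-values adjusted over 15041 genes and below 0.05, which is called the adjusted p of the call. A p beside a fold change over a single named class is that of the comparison with that class, adjusted over the same genes. Of the 44 collagens, 41 passed the filter on low counts. Col6a4, Col6a5 and Col10a1 did not, with 65, 107 and 54 UMIs over the 6 libraries. Col10a1 is the collagen of hypertrophic cartilage, and cartilage held 4, 4, 0 and 0 of its UMIs in WT replicates 1, 2, 4 and 5. Of its 41 UMIs in WT cells, bone held 10, ungated cells 10 and cartilage 8.

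The share of UMIs that came from collagens differed widely between classes. Cartilage spent 1.82% ± 0.224 (SD, n = 4) of its UMIs on collagens and bone 1.48% ± 0.781 (SD, n = 4). In bone the share was 2.49%, 1.71%, 0.817% and 0.911% in WT replicates 1, 2, 4 and 5. Dermis stood at 0.732% ± 0.152, other mesenchyme at 0.548% ± 0.0303, mural cells at 0.516% ± 0.116, endothelium at 0.327% ± 0.119 and glia at 0.241% ± 0.0181 (SD, n = 4). Epithelium, neurons and immune cells were low, at 0.0626% ± 0.013, 0.0862% ± 0.0181 and 0.0871% ± 0.0049 (SD, n = 4). Immune cells are not known for fibrillar collagen, and their values are given below as the background beside shares of cells.

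**Figure D1:**
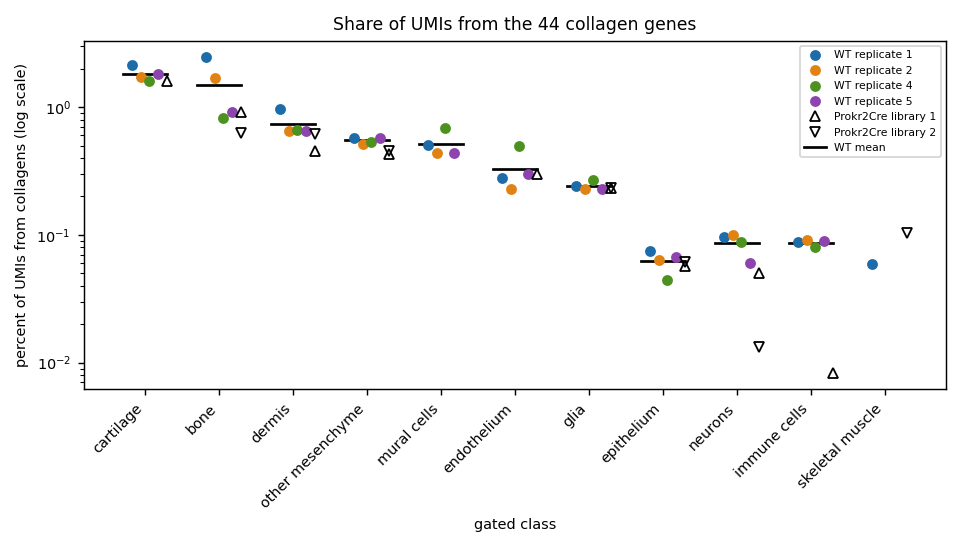
Percent of UMIs from the 44 collagen genes (log axis) per gated class; each filled point is a WT library, open triangles are the Prokr2Cre libraries and bars are WT means. Cartilage and bone are highest, at WT means of 1.82% and 1.48%, and epithelium stands at 0.0626%; erythroid cells, with 21 cells in all, are not plotted.

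Of the 41 collagens tested, 19 marked a class: 8 cartilage, 7 bone, 2 endothelium, 1 epithelium and 1 glia, with none for dermis or mural cells. Of all 15041 genes tested, 0.917% marked cartilage, 0.625% bone, 1.69% endothelium, 1.19% epithelium, 0.512% glia, 0.0532% dermis and 0.392% mural cells. For 18 of the 19, the lowest library of the marked class lay above the highest library of every other class, and the exception was Col1a1. The 19 were picked as higher in these same data, and overlap was not counted for all genes, so this is a description only. Library was a term of the fit. For 10 of the 19 calls the largest p was the one against skeletal muscle, which has a single sum (WT replicate 1), and for 9 it was against another class. In a fit without skeletal muscle, added after the data were seen, all 19 were called, and Col19a1 in glia was called as well. No collagen marked neurons, immune cells, other mesenchyme or skeletal muscle: edgeR called 0 in each, with 0, 0, 1 (Col8a2) and 1 (Col19a1) at an unadjusted p under 0.05, and DESeq2 called 0 in each. Of all genes, 5.96%, 4.39%, 0.00665% and 0.951% marked these classes.

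**Figure D2:**
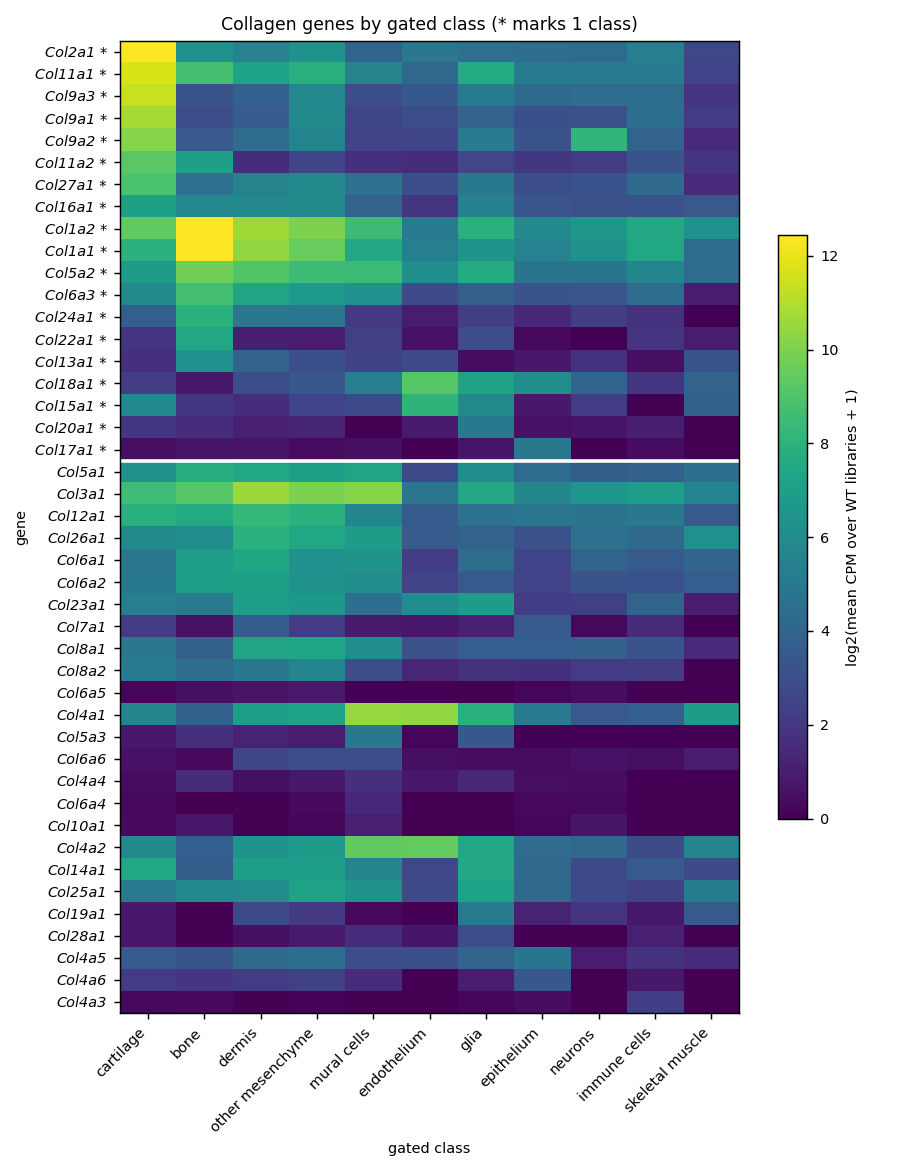
Mean level of each collagen gene over the WT libraries, as log2(CPM + 1), by gated class; genes above the white line, with an asterisk, mark 1 class. The cartilage and bone blocks are the brightest, Col4a1 and Col4a2 are bright in both vessel classes, and Col9a2 has a second bright cell in neurons, at a mean of 280.4 CPM; the skeletal muscle column is WT replicate 1 alone.

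The stretch before a RefSeq transcript start is shown for 3 of these genes, which mark cartilage, bone and endothelium, to set promoters of collagens with unlike sites of expression side by side. Each sequence is the 150 bases before the start that RefSeq gives in GRCm38.p6, on the plus strand, written 5′ to 3′ and free of annotated exons. Capitals mark a GC box (GGGCGG, the core bound by Sp factors).
Col27a1: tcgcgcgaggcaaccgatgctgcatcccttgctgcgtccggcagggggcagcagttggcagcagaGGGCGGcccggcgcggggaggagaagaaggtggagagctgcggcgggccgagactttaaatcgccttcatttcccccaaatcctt
Col24a1: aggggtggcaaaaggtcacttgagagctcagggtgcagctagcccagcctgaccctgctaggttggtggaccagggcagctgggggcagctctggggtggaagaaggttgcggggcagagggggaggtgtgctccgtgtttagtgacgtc
Col15a1: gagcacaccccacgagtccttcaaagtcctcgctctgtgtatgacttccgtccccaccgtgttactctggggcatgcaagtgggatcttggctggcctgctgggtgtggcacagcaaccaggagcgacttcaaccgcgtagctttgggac
The stretches lie at chr4:63215262-63215411 for Col27a1, chr3:145292322-145292471 for Col24a1 and chr4:47207862-47208011 for Col15a1. Of these 3, RefSeq and GENCODE M21 agree on the start of Col24a1 only. The Col27a1 stretch lies inside the gene as GENCODE gives it, downstream of the GENCODE start, and GENCODE starts Col15a1 further downstream than RefSeq does. The search on both strands covered the TATA box written TATAAA, the CCAAT box, the GC box, the Sox core written ACAAAG and the Runx core written TGTGGT, and the GC box of Col27a1 was the only match in these 3 stretches. RefSeq gives 38 windows of 300 bases (250 before to 50 after a start) for 35 of the 44 collagens. The GC box was in 23 of the 38 (60.5%) and in 35.7% of all 32851 windows. The TATA box was in 13.2% of collagen windows and 13.6% of all, the CCAAT box in 34.2% and 37.4%, the Sox core in 13.2% and 18.7%, and the Runx core in 7.89% and 16.8%. A match describes the letters only, and motifs were counted whether or not they overlapped another.

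Cartilage was marked by the genes of its own fibres. Col2a1 (chr15:97975602-98004695), the chain of the type II homotrimer, stood at 7209, 5252, 4831 and 4909 CPM in cartilage of WT replicates 1, 2, 4 and 5. In bone, the next class in the fit, it stood at 123, 75.2, 60.3 and 58.9 CPM. The log2 fold change of cartilage over bone was 6.06 (SE 0.43, edgeR adjusted p = 4.21e-14), and every cartilage library lay above every library of the other classes. Cartilage held 86.2% of all Col2a1 UMIs of the WT libraries, and ungated cells a further 10.4%. After thinning each cell to 2000 UMIs, 97.97% of cartilage cells had a Col2a1 UMI, against 4.29% of immune cells (99.8% and 12.3% unthinned, at median depths per library of 5579 to 11900 and 8468 to 20000 UMIs).

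Type IX collagen coats type II fibres and joins chains from 3 genes. Col9a1 (chr1:24177610-24252684) stood at 1641, 1647, 1789 and 1784 CPM in cartilage. Col9a3 (chr2:180597790-180622189) stood at 3148, 2723, 2027 and 2997 CPM, and Col9a2 (chr4:121039385-121055322) at 1357, 1127, 843 and 1230.1 CPM. The smallest log2 fold change over another class was 5.05 for Col9a1 and 5.86 for Col9a3, both over other mesenchyme. For Col9a2 it was only 2.17 (SE 0.27, edgeR adjusted p = 7.93e-09), and the next class was neurons. The UMIs of Col9a2 per UMI of Col9a1 in cartilage were 0.668 ± 0.147, and those of Col9a3 per UMI of Col9a1 were 1.60 ± 0.331 (SD, n = 4).

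Type XI collagen sits inside the cartilage fibre and joins Col11a1, Col11a2 and Col2a1 chains. Col11a1 (chr3:114030540-114220718) stood at 3848, 3065, 3362 and 3303 CPM in cartilage and at 657, 523, 241 and 262 CPM in bone. Col11a2 (chr17:34039437-34066685) stood at 923, 513, 459 and 509 CPM in cartilage and at 228, 151, 64.2 and 68.6 CPM in bone. Both marked cartilage, exceeding bone by 3.00 (SE 0.30) and 2.24 (SE 0.21) on the log2 scale, with edgeR adjusted p-values of 3.6e-10 and 4.17e-11. Bone was nevertheless above dermis for both, by 1.67 for Col11a1 and 5.97 for Col11a2 on the log2 scale (edgeR adjusted p = 2.28e-05 and 3.69e-18). Per UMI of Col11a1, Col11a2 had 0.291 ± 0.0395 UMIs in bone, 0.174 ± 0.0453 in cartilage and 0.0142 ± 0.00436 in dermis (SD, n = 4). The dermis ratio is not read, since Col11a2 in dermis lay below the immune background in the fit. Cartilage exceeded dermis by 8.22 and immune cells by 6.18 on the log2 scale.

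Col27a1 (chr4:63214004-63334991), a fibrillar collagen known from cartilage, stood at 358, 479.6, 560.2 and 549 CPM in cartilage and between 26.9 and 78.2 CPM in other mesenchyme, the next class. The log2 fold change over other mesenchyme was 3.27 (SE 0.15, edgeR adjusted p = 2.01e-19). Col16a1, which lies near fibres, was the weakest of the 8, at 223, 105, 92.2 and 107 CPM in cartilage. It exceeded bone by 1.25 on the log2 scale (SE 0.21, edgeR adjusted p = 1.6e-05), and WT replicate 1 lay apart from the other libraries. The cartilage count was 8 in each fit that left out a WT library, and 6 with library dropped from the model.

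**Figure D3:**
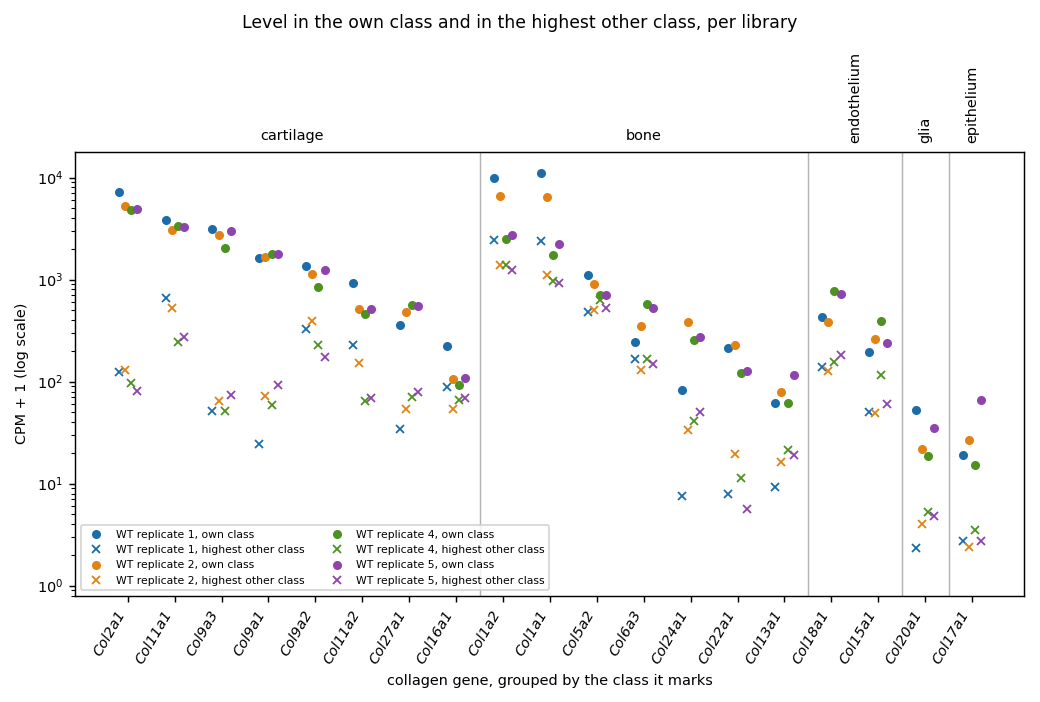
Level (CPM + 1, log axis) of the 19 collagens in the class they mark (filled points) and in the highest other class of the same library (crosses), per WT library. Points lie above the crosses of the same library for each gene; the gap of Col5a2 in WT replicate 4 is narrow, at 701 against 632 CPM in dermis.

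Bone was marked by type I collagen and by rarer chains. Col1a1 and Col1a2 encode the chains of type I collagen, which joins 2 Col1a1 chains with 1 Col1a2 chain and makes up most of the bone matrix. Col1a1 (chr11:94936224-94953042) stood at 11159, 6471, 1731 and 2229.6 CPM in bone and at 2367, 1097, 960.4 and 921 CPM in dermis of WT replicates 1, 2, 4 and 5. Bone lay above dermis within every library, although bone of WT replicates 4 and 5 was below dermis of WT replicate 1. Col1a2 (chr6:4504814-4541544) stood at 9857, 6529, 2509 and 2727 CPM in bone and at 2449, 1394, 1402 and 1248 CPM in dermis. The log2 fold changes over dermis were 2.03 (SE 0.32) for Col1a1 and 1.87 (SE 0.29) for Col1a2, with edgeR adjusted p-values of 4.55e-06 and 3.64e-06. Bone of WT replicates 1 and 2 was the higher for both genes. The bone markers did not follow a single pattern over the same libraries. Dmp1, Ifitm5 and Phex were in larger shares of bone cells in WT replicates 1 and 2 than in WT replicates 4 and 5 (Ifitm5 in 88.9% and 82.7%, against 57.5% and 55.7%). Sp7, Runx2 and Alpl were in smaller shares (Sp7 in 79.3% and 79.6%, against 84.9% and 91.8%), and Ibsp and Spp1 overlapped. The part of these differences in the collagen levels was not tested.

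Col1a1 was also found in cells of other classes. After thinning to 2000 UMIs, 85.8% of bone cells had a Col1a1 UMI, 71.9% of dermis cells, 63.4% of other mesenchyme and 9.56% of immune cells (99.4%, 95.7%, 84.0% and 21.7% unthinned). In immune cells Col1a1 stood at 277, 64.6, 113 and 216 CPM, and in cartilage at 484, 160.2, 99.3 and 227 CPM. The ranges overlapped, so the level of Col1a1 in cartilage is not told apart from the background. Col1a2 in cartilage was higher, at 728, 595, 601 and 769.97 CPM. UMIs of Col1a1 per UMI of Col1a2 were 0.908 ± 0.194 in bone and 0.794 ± 0.122 in dermis (SD, n = 4). No ratio is read for cartilage, mural cells or glia, since Col1a1 overlapped the immune background there, at 226, 136, 157 and 198 CPM in mural cells and 158, 90.7, 47.9 and 46.2 CPM in glia.

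Col22a1 (chr15:71795795-72034227), known from tissue junctions, had the largest log2 fold change over the next class among the 7 bone collagens. It stood at 211, 228, 121 and 126 CPM in bone, and the highest library of any other class was glia of WT replicate 2, at 18.4 CPM. The log2 fold change over glia was 4.84 (SE 0.33, edgeR adjusted p = 1.04e-13). It was in 20.7% of thinned bone cells and 40.6% of unthinned ones, against 0.309% and 0.804% of immune cells.

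Col24a1 (chr3:145292472-145552011), a fibrillar collagen known from developing bone, stood at 81.9, 380.04, 257 and 274 CPM in bone and at 6.60, 32.9, 40.1 and 37.8 CPM in dermis. Its log2 fold change over dermis was 3.28 (SE 0.27, edgeR adjusted p = 5.8e-12), and the edgeR adjusted p of the call, from skeletal muscle, was 0.000573. WT replicate 1 was the lowest library for Col24a1 in both classes. Col13a1 (chr10:61838236-61979108), a transmembrane collagen of cell adhesions, stood at 60.6, 77.96, 60.3 and 114 CPM in bone and at 5.44, 15.4, 20.2 and 18.02 CPM in dermis. Its log2 fold change over dermis was 2.57 (SE 0.25, edgeR adjusted p = 2.25e-10). The edgeR adjusted p of the call, 0.0154, came from skeletal muscle (2.66, SE 0.60), and the call was lost without WT replicate 2 (0.0927) or replicate 5 (0.0582), with library dropped from the model (0.325) and with DESeq2 (0.142). Without skeletal muscle the edgeR adjusted p of the call was 1.85e-08.

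The remaining bone collagens form fibres or filaments with chains that did not mark bone. Col6a3, a chain of the beaded filaments of type VI, had a log2 fold change over dermis of 1.61 (edgeR adjusted p = 9.94e-07), whereas its partners Col6a1 and Col6a2 had their highest means in dermis. UMIs of Col6a3 per UMI of Col6a1 were 3.78 ± 1.44 in bone and 1.04 ± 0.300 in dermis (SD, n = 4). Col5a2, which joins Col5a1 in the type V molecules inside type I fibres, exceeded dermis by only 0.87 (edgeR adjusted p = 0.000507, and 0.011 for the call). The call was lost without WT replicate 1 (edgeR adjusted p of the call 0.316) or replicate 2 (0.174). Col5a1 was also above dermis in bone, by 0.55 (edgeR adjusted p = 0.00644), but its edgeR adjusted p of the call was 0.128, so it does not count among the bone markers. UMIs of Col5a1 per UMI of Col5a2 were 0.260 ± 0.0121 in bone, 0.328 ± 0.0806 in dermis and 0.760 ± 0.0424 in cartilage (SD, n = 4), with all cartilage libraries above all libraries of bone and dermis. With library dropped from the model, the bone count was 1 in place of 7, and that gene was Col22a1.

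**Figure D4:**
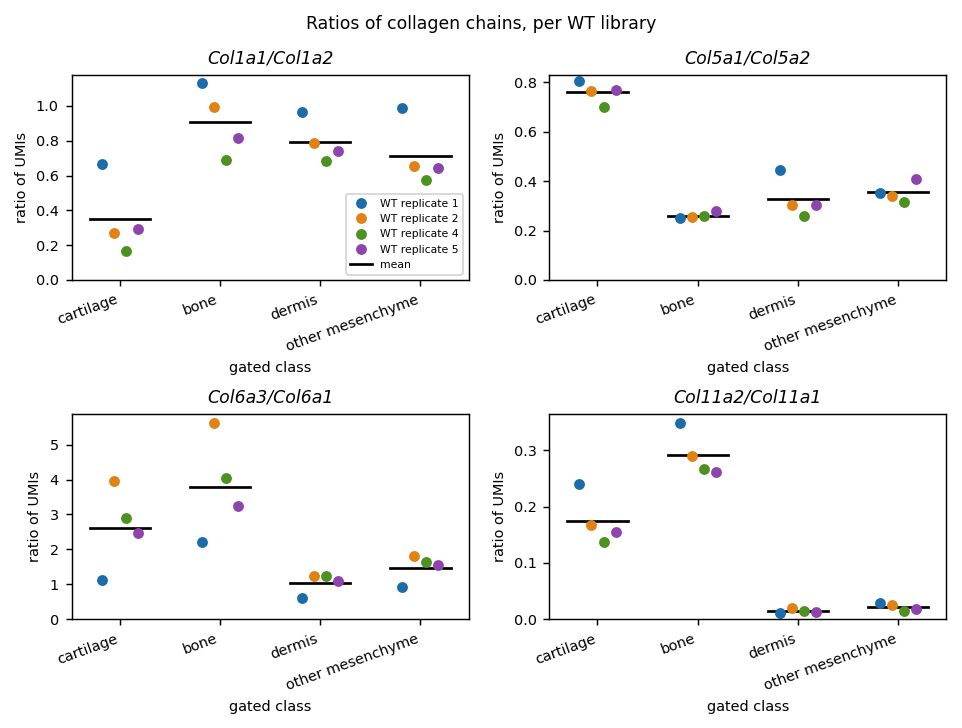
UMIs of a collagen chain per UMI of its partner chain in 4 mesenchymal classes; points are WT libraries and bars are means. Col11a2 per Col11a1 is higher in bone (mean 0.291) than in cartilage (0.174), and Col5a1 per Col5a2 is highest in cartilage (0.760). Col1a1 in cartilage overlaps the immune background, so its ratio there is not read. Col11a2 in dermis and other mesenchyme lay below that background in the fit, so its ratios there are not read.

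Direct comparison of the skeletal classes split the collagens in both directions. Of the 41 tested, 11 were higher in bone than in cartilage and 14 lower by edgeR, against 11.6% and 12.7% of all genes tested. The median log2 fold change of bone over cartilage was -0.46 for the collagens and -0.07 for all genes. Besides the markers above, the basement membrane chains Col4a1 and Col4a2 were lower in bone, by log2 fold changes of -2.03 and -2.44, and so was Col14a1, which binds fibres, at -4.11 (edgeR adjusted p = 1.01e-07, 1.2e-10 and 3.43e-09). Against dermis, 12 were higher in bone and 14 lower, against 12.7% and 15.7% of all genes.

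No collagen marked dermis. By edgeR 0 of 41 were called, 0 at an unadjusted p under 0.05, and DESeq2 called 0. Dermis nonetheless had the highest mean of 7 collagens. Col3a1, the chain of type III collagen in soft connective tissue, stood at 1658, 1540.1, 1349 and 1454 CPM in dermis and at 910.1, 1308, 1388 and 1066 CPM in mural cells, so the classes overlapped. Col26a1 stood at 133, 232, 289.8 and 327 CPM in dermis and at 114, 189.6, 178 and 228 CPM in other mesenchyme. When the fit held only the 7 named classes, without other mesenchyme, Col26a1 marked dermis (edgeR adjusted p of the call 0.0310), with a smallest log2 fold change of 1.21, over mural cells. Against other mesenchyme, 4 of 41 collagens were higher in dermis and 5 lower by edgeR, against 3.77% and 3.23% of all genes. The 4 higher were Col7a1 (1.65), Col6a1 (1.06), Col13a1 (1.05) and Col6a2 (0.73), and the 5 lower were Col9a1, Col9a2, Col9a3, Col25a1 and Col8a2.

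Endothelium was marked by both basement membrane collagens that carry an endostatin-type end. Col15a1 (chr4:47208161-47313167) stood at 192, 262, 392 and 239 CPM in endothelium of WT replicates 1, 2, 4 and 5. It exceeded cartilage, the next class in the fit, by 2.26 on the log2 scale (SE 0.24, edgeR adjusted p = 8.13e-10). The highest library of another class was glia of WT replicate 4 at 116 CPM. Col18a1 (chr10:77052178-77166548) stood at 424.5, 384, 778 and 718 CPM in endothelium and at 138, 126, 154 and 179.9 CPM in glia. Its log2 fold change over glia was 2.01 (SE 0.29, edgeR adjusted p = 6.89e-07). After thinning, 36.2% of endothelial cells had a Col15a1 UMI and 0% of immune cells did (80.9% and 0% unthinned). The endothelial count was 2 in each fit that left out a WT library.

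The main type IV chains, partners in the vessel basement membrane, were high in both vessel classes. Col4a1 stood at 1146, 878, 2127 and 1105 CPM in endothelium and at 1567, 830.2, 2331 and 891 CPM in mural cells. Col4a2 stood at 600.3, 490.4, 1071 and 656 CPM in endothelium and at 727, 512, 922 and 496 CPM in mural cells. The order of the classes changed from library to library for both genes, and WT replicate 4 was highest in all 4 sets. Endothelium differed from mural cells by 0.08 (SE 0.19) for Col4a1 and 0.19 (SE 0.17) for Col4a2 on the log2 scale, and neither was called (edgeR adjusted p = 0.849 and 0.467). UMIs of Col4a2 per UMI of Col4a1 were 0.545 ± 0.0399 in endothelium and 0.508 ± 0.0978 in mural cells (SD, n = 4). These genes lie head to head on chromosome 8, and their RefSeq starts, at positions 11312826 for Col4a1 on the minus strand and 11312805 for Col4a2 on the plus strand, overlap.

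Mural cells and endothelium differed in many collagens. Of 41 collagens, 16 were lower in endothelium than in mural cells and 3 higher by edgeR, against 12.2% and 12% of all genes. The lower ones included Col3a1 (-5.17), Col6a1 (-4.59), Col5a1 (-4.02) and Col1a2 (-3.42), and the higher ones were Col15a1 (5.39), Col18a1 (3.74) and Col23a1 (1.55). The median log2 fold change was -2.01 for the collagens and -0.02 for all genes. Against other mesenchyme, mural cells were higher for 4 of 41 and lower for 18 by edgeR, against 8.85% and 12% of all genes, and the 4 higher were Col5a3 (4.85), Col4a1 (3.09), Col4a2 (2.62) and Col18a1 (2.13). No collagen marked mural cells: by edgeR 0 were called, 1 had an unadjusted p under 0.05, and DESeq2 called 0. That gene was Col5a3, a minor type V chain, at 24.2, 23.5, 36.7 and 36.8 CPM in mural cells and 2.66, 6.57, 17.6 and 12.2 CPM in glia. The groups did not overlap, and the log2 fold change over glia was 1.76 (edgeR adjusted p = 0.0743, and 0.965 for the call).

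Glia were marked by Col20a1 (chr2:180986535-181018363), a fibre-associated collagen. It stood at 51.8, 21.03, 17.6 and 34.0 CPM in glia, on 78, 16, 7 and 14 UMIs, and at most at 4.27 CPM in a library of cartilage, the next class. The log2 fold change over cartilage was 3.67 (SE 0.50, edgeR adjusted p = 2.7e-07). The edgeR adjusted p of the call, 0.0423, came from the single sum of skeletal muscle (9.61, SE 2.33), and without skeletal muscle it was 3.04e-05. The call was lost without WT replicate 2 (edgeR adjusted p of the call 0.0726), 4 (0.0529) or 5 (0.121), while the log2 fold changes lay between 3.76 and 4.00 in those fits. Without WT replicate 1, and so without skeletal muscle, Col20a1 was called (2.66, edgeR adjusted p of the call 0.0066), and with library dropped from the model it was not (0.166). The call was also lost with DESeq2 (adjusted p of the call 0.329), with 1 more marker required of each gated cell (0.141 with edgeR) and with a cell filter of 1000 genes or more and a mitochondrial share of 5% or less (0.0629 with edgeR).

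Other glial collagens were uneven between libraries. Col28a1, known from peripheral nerve, was highest in glia at 9.96, 10.5, 5.04 and 2.43 CPM on 15, 8, 2 and 1 UMIs and was not called (edgeR adjusted p of the call 1). Col19a1 stood at 1.33, 9.202, 65.5 and 55.9 CPM in glia, so that WT replicates 1 and 2 lay far below WT replicates 4 and 5. Col19a1 marked glia when skeletal muscle left the fit, with a smallest log2 fold change of 2.36, over dermis (edgeR adjusted p of the call 0.0112). It also did so when only the 7 named classes stayed (2.40, edgeR adjusted p of the call 0.0031), and without WT replicate 1, the library with the muscle cells (2.53, edgeR adjusted p of the call 0.0387). Compared with neurons, glia were higher for 20 of 41 collagens and lower for 2 by edgeR, against 20.3% and 25.8% of all genes. The 2 lower were Col9a2 (-2.80) and Col13a1 (-3.16).

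Epithelium was marked by Col17a1 (chr19:47646344-47692094), the transmembrane collagen of hemidesmosomes, which fasten basal cells to the basement membrane. It stood at 18.1, 25.7, 14.1 and 64.5 CPM in epithelium, and the highest library of any other class was glia at 2.52 CPM. The log2 fold change over mural cells was 4.68 (SE 0.75, edgeR adjusted p = 7.79e-06). The edgeR adjusted p of the call, 0.0127, came from skeletal muscle (9.46, SE 2.17), and without skeletal muscle it was 8.17e-05. The call was lost without WT replicate 2 (edgeR adjusted p of the call 0.0732), with library dropped from the model (0.107) and with DESeq2 (0.203).

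The epithelium was then divided by the basal markers Krt5, Krt14, Krt15 and Trp63, with 688 cells that held at least 2 of them and 1241 that held none. Col17a1 stood at 51.2, 69.4, 46.6 and 106 CPM in basal cells, and at 0, 0.309, 0.769 and 4.42 CPM in the others, on 0, 2, 2 and 4 UMIs. Of the 29 collagens tested, 13 were higher in basal cells, 2 lower and 14 not called by edgeR. Of all 11797 genes tested, 12% were higher and 12.7% lower. The median log2 fold change was 0.40 for the collagens and -0.0033 for all genes.

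The 3 largest log2 fold changes in basal cells were those of Col17a1, Col7a1 and the type IV chain Col4a6. Col17a1 had a log2 fold change of 6.78 (SE 0.38) and Col7a1, the anchoring fibril chain, of 4.98 (SE 0.41), with edgeR adjusted p-values of 2.92e-06 and 2.43e-05. Col7a1 stood at 36.4, 20.98, 10.9 and 29.7 CPM in basal cells and at most at 1.54 CPM in the others, and it was also present in dermis, at 14.4, 10.01, 14.5 and 6.69 CPM. Dermal fibroblasts and basal keratinocytes are both known sources of type VII collagen. All 4 type IV chains that were tested were higher in basal cells: Col4a6 by 3.81, Col4a1 by 1.72, Col4a5 by 1.71 and Col4a2 by 1.63, with edgeR adjusted p-values from 2.64e-05 to 0.000155. Col4a5 and Col4a6 lie head to head on the X chromosome, 1308 bases apart in GENCODE M21. There were 0.419 ± 0.129 (SD, n = 4) UMIs of Col4a6 per UMI of Col4a5 in basal cells, and at most 0.102 in the other cells of WT replicates 1, 2 and 4.

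Collagens of other families were also higher in basal cells, namely Col8a1 (1.78), Col14a1 (1.78), Col9a3 (1.20), Col5a1 (1.08), Col5a2 (0.70), Col18a1 (0.69) and Col12a1 (0.63). Of these, Col14a1 lost the call without WT replicate 1 (edgeR adjusted p = 0.0821) and with DESeq2 (adjusted p = 0.148), Col9a3 without WT replicate 1, 4 or 5 (0.234, 0.0545 and 0.0951 with edgeR) and Col12a1 without WT replicate 4 (edgeR adjusted p = 0.0655). The 2 lower collagens were Col9a2 (-1.09) and Col11a1 (-0.66). Col9a2 lost the call without WT replicate 1, 2 or 4 (edgeR adjusted p = 0.0598, 0.132 and 0.0751), with doublets removed (0.0602) and with DESeq2 (0.108), and Col11a1 without WT replicate 2 or 4 (edgeR adjusted p = 0.0986 and 0.0604). With 1 more marker required of each cell, Col9a3, Col12a1 and Col11a1 also missed the threshold (edgeR adjusted p = 0.0569, 0.0514 and 0.0570). With library dropped from the model, 8 were higher and 0 lower by edgeR, and DESeq2 found 1 lower. Col1a1 and Col3a1, which mesenchyme makes, were not called (0.16 and -0.49, edgeR adjusted p = 0.488 and 0.389). The higher Col8a1, Col5a1, Col5a2 and Col12a1 also had their highest class means in other mesenchyme, bone or dermis. Epithelium as a whole spent a smaller share of its UMIs on collagens than immune cells, the background (0.0626% against 0.0871%). The collagens of other families were not set against that background in basal cells, so a level above it was not shown for them here.

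**Figure D5:**
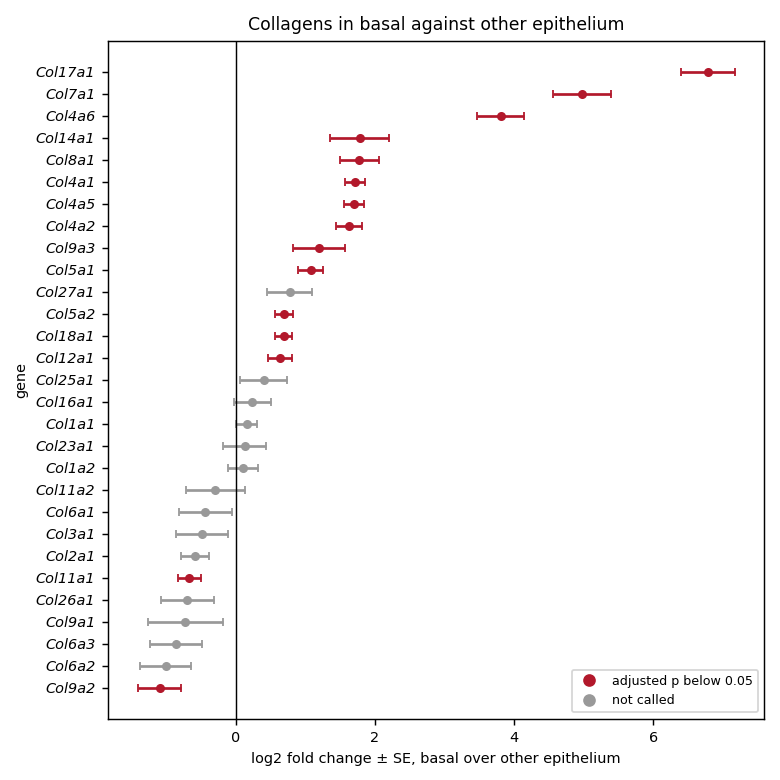
Log2 fold change (with SE) of the 29 tested collagens in basal over other epithelium, from 4 WT libraries; red points have an edgeR adjusted p below 0.05. Col17a1 (6.78), Col7a1 (4.98) and Col4a6 (3.81) lead, and Col9a2 (-1.09) and Col11a1 (-0.66) are the 2 lower ones.

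Neurons had few collagen UMIs, and Col9a2 led them in each library. It made up 33.9%, 39.5%, 25.7% and 28.8% of the collagen UMIs of neurons in WT replicates 1, 2, 4 and 5. Col9a2 stood at 327, 394, 227 and 173 CPM in neurons and at 6.84, 45.4, 4.79 and 1.58 CPM in immune cells, with no overlap. The log2 fold change of neurons over immune cells was 4.19 (SE 0.39, edgeR adjusted p = 1.02e-11).

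Its partner chains were scarce there. Neurons held 439, 212, 182 and 30 UMIs of Col9a2, 5, 2, 13 and 1 UMIs of Col9a1 and 15, 13, 29 and 2 UMIs of Col9a3, whereas cartilage held more UMIs of Col9a1 than of Col9a2 in all 4 libraries. After thinning, 32.1% of neurons had a Col9a2 UMI, against 1.76% of immune cells and 0.976% of neurons for Col9a1 (55.9%, 7.73% and 3.31% unthinned, at median depths per library of 5965 to 13630 UMIs in neurons and 8468 to 20000 in immune cells). In both Prokr2Cre libraries Col9a2 also led the collagens of neurons, with 42.2% and 34.3% of their collagen UMIs. Of 41 collagens, 2 were higher in neurons than in immune cells by edgeR and 7 lower, against 30.5% and 25.9% of all genes; the other higher one was Col4a2 (1.24).

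The Prokr2Cre libraries gave values for the same classes without a test. In library 1, where 9 of the named and other classes reached 10 cells, 19 of the 19 collagens were highest in the class they marked in WT. Col2a1 stood at 4913 CPM in its cartilage (95% Poisson interval 4773 to 5056, counting error only) and Col17a1 at 52.7 CPM in its epithelium (46.98 to 58.98). Col16a1 was close, at 76.8 CPM in cartilage (60.2 to 96.5) and 56.2 CPM in glia. Of the UMIs of its immune cells, 0.00828% came from collagens, against 0.0871% in WT. In library 2, which had no cartilage or endothelium class, 7 of 9 were highest in the same class, Col5a2 only just, at 554.4 CPM in bone and 554.3 CPM in dermis. Col13a1 was at 27.7 CPM in bone (12.7 to 52.6) and 41.3 CPM in dermis, and Col6a3 at 179 CPM in bone (136 to 231) and 225 CPM in dermis. Col22a1 rested there on 3 UMIs, at 9.24 CPM (1.91 to 27.0). Among the 11 skeletal muscle cells of library 2, Col25a1, a transmembrane collagen known from muscle innervation, made up 49.2% of collagen UMIs and stood at 509 CPM (438 to 587). In the 59 skeletal muscle cells of WT replicate 1 it stood at 37.8 CPM (27.1 to 51.2), and the leading collagen was Col4a1, with 19.4% of collagen UMIs. Col25a1 was low in other mesenchyme of WT replicate 1 as well, at 38.0 CPM against 150 to 221 CPM in WT replicates 2, 4 and 5. The 2 muscle libraries also differ in mouse stock and Cell Ranger version, and the part of these was not tested.

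Collagen levels differed between WT libraries in the same class. In other mesenchyme, the mean of WT replicates 2, 4 and 5 over the value of WT replicate 1 was 8.71 for Col24a1, 4.67 for Col25a1 and 3.10 for Col9a1, and 0.436 for Col18a1 and 0.513 for Col1a1. WT replicate 1 was counted with Cell Ranger 6.0.1 and the other 3 with 7.0.0, per the file headers. Over the 32 collagens compared, this ratio had a Spearman correlation of 0.383 with the length of the gene, a description across genes, which are not independent replicates. The software version and the library cannot be told apart here, and the part of either in the ratios was not tested.

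Most of the collagen-processing genes that marked a class marked cartilage or bone. Of 45 genes for modification, folding, cleavage, crosslinking, receptors and breakdown of collagen, all were tested and 14 marked a class: 7 cartilage, 4 bone and 1 each of mural cells, endothelium and immune cells. Of all genes tested, 0.917%, 0.625%, 0.392%, 1.69% and 4.39% marked these classes. In cartilage, Loxl3, a crosslinking lysyl oxidase, stood at 82.5, 83.1, 56.6 and 86.6 CPM and Plod2, which hydroxylates lysine in the telopeptides, at 321, 377, 448 and 399 CPM. Their smallest log2 fold changes were 2.94 over mural cells and 2.01 over bone (edgeR adjusted p = 5.98e-09 and 3.72e-11). In bone, Creb3l1, a factor of the secretory pathway, stood at 168, 222, 131 and 161 CPM (2.26 over dermis, edgeR adjusted p = 6.41e-11) and Loxl4 at 25.5, 14.6, 7.78 and 2.64 CPM (1.94 over cartilage, edgeR adjusted p = 0.000642).

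Of 7 genes for collagen receptors and uptake, Itga1 and Itga2 marked a vessel class and Ddr1, Ddr2, Itga10, Itga11 and Mrc2 marked none. Itga1, the alpha chain of an integrin that binds collagen, stood at 263, 282, 424 and 473 CPM in mural cells (2.81 over endothelium, edgeR adjusted p = 1.44e-09), and Itga2, the alpha chain of a second one, at 39.7, 64.01, 157 and 77.8 CPM in endothelium (1.60 over glia, edgeR adjusted p = 0.00132). Mmp9, a gelatinase, marked immune cells at 305, 8.25, 6.39 and 235 CPM, with WT replicates 2 and 4 far below the others. In basal against other epithelium, 6 of the 34 pathway genes tested were higher and 2 lower by edgeR, against 12% and 12.7% of all genes tested. Among the higher were Mrc2 (1.78), Lox (1.10), Mmp2 (0.95) and Ddr1 (0.94), and the lower were P4ha1 (-0.70) and Plod2 (-0.67).

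The other collagens passed the filter without marking a class. Col12a1, which binds fibres, had its highest mean in dermis (313 CPM), as did the transmembrane Col23a1 (126 CPM), and the fibre-binding Col14a1 and the transmembrane Col25a1 had theirs in glia (178 and 148 CPM). The short chains Col8a1 and Col8a2 were highest in other mesenchyme (159 and 51.9 CPM). The type VI chain Col6a6 was low, at a highest class mean of 7.05 CPM in mural cells. The type IV chains Col4a3 and Col4a4, partners known from kidney basement membrane, had 59 and 124 UMIs in all WT cells.

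Genes with the most similar pattern were ranked by Pearson correlation of mean log2 CPM over the 11 classes, among 15000 genes, as a description. The 3 genes nearest to Col2a1 were Kcns1 (0.989), Extl1 (0.965) and Fam180a (0.962). Nearest to Col1a1 were Ntn5 (0.951), Tspan11 (0.949) and Pth1r (0.946). Nearest to Col4a1 were Igfbp7 (0.931), Lamb1 (0.917) and Sept10 (0.898), and nearest to Col17a1 were Calm4, Sh3rf2 and Gm15759, each at 0.989.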

How the data were processed

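The authors deposited raw UMI counts per gene and barcode for 7 libraries of the embryonic day 14.5 nose. Per the file headers they were made with Cell Ranger 6.0.1 (WT replicate 1), 7.0.0 (other WT) or 6.1.2 (Prokr2Cre); the submitters' processing notes name Cell Ranger 4, Seurat 4.3.0 and mm10, and counting of introns is not given in the sources used here. Totals ran from 16773781 to 89800259 UMIs. Cells needed 500 genes or more and a mitochondrial share of 10% or less (31465 cells in 6 libraries). Scrublet marked at most 0.333% of barcodes, so it did not work as a caller, and doublets stayed in except in an alternative that removed 0.8% per 1000 barcodes.

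Counts were summed per library and class with at least 10 cells (41 sums) and fitted with edgeR 4.0.16 (TMM, filterByExpr, 15130 genes, library as a block, Benjamini-Hochberg adjustment). Gate markers were not tested. The block comes from the shared suspension: over 6788 genes, sums of the same library deviated together (median correlation 0.570, range 0.136 to 0.939, in 180 pairs) and all 40 sums checked were nearest to their own library. On simulated counts for cartilage, with 13357 genes, 90 of 100 genes changed 4-fold and 2 of 100 changed 2-fold were recovered, with 0 false calls. The spread was set by hand and not estimated from the data. Unchanged genes had the same mean in every class, so the 0 false calls do not cover genes that are high in several classes.

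Members, markers and lists were chosen with earlier results of these data known; the number of markers a cell needed was set after marker counts were seen. The plan for named genes was up to 5 a class by smallest fold change plus partner chains, up to 2 pathway genes a class and the 3 nearest genes. Values per library are also given for Col16a1 and for uncalled collagens outside this plan, such as Col3a1, Col4a1, Col4a2, Col5a3, Col7a1, Col19a1, Col26a1 and Col28a1. Nothing says each WT library is a separate animal beyond 5 noses in the protocol, so p-values measure the spread between libraries. Gene positions are from GENCODE M21 (all 44 matched by Ensembl gene identifier).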

Additional observations from a re-analysis of the deposited data

Results flagged for a closer look

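Of 41 groups of 4 libraries that were checked, 4 held a library apart from the others by Dixon's criterion, and chance gives about 1 in 20. In cartilage, Col11a2 stood at 923 CPM in WT replicate 1 and between 459 and 513 CPM in the other 3 libraries. Also in cartilage, Col16a1 stood at 223 CPM in WT replicate 1 and between 92.2 and 107 CPM elsewhere. In dermis, WT replicate 1 spent 0.959% of its UMIs on collagens, against 0.648% to 0.666% in the others. Of the 8 dermis markers, Dpt, Lum, Clec3b and Dkk2 were in a larger share of dermis cells in that library than in any other WT library (Dpt in 24.6%, Lum in 96.2%), and Apcdd1, Crabp1, Tbx15 and Twist2 in a smaller one (Apcdd1 in 11.85%, Tbx15 in 41.7%). Their part in the collagen share was not tested. In basal epithelium, Col4a2 stood at 21.2 CPM in WT replicate 2 and between 35.7 and 37.2 CPM in the others. In 3 of the 4 groups the outlying library is WT replicate 1.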

How the results depend on the processing

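The counts of collagens marking cartilage (8) and endothelium (2) stayed within 1.5 times of the reported ones under 13 other settings and 1 more that was added after the data were seen, and none of the results changed direction. With no replicate block, bone had 1 collagen in place of 7, glia 0, epithelium 0, and basal epithelium 8 higher and 0 lower. With DESeq2, glia had 0, epithelium 0, and 1 was lower in basal cells. A stricter gate gave 0 for glia and 1 lower in basal cells, a stricter cell filter 0 for glia, a looser gate 4 lower, removal of doublets 1 lower, and no filter on low counts 7 lower. With only the 7 named classes, dermis had 1 and glia 2, and with skeletal muscle left out of the fit (the added setting) glia had 2. Leaving out each WT replicate in turn gave 0 to 2 for glia, 0 to 1 for epithelium, 5 to 7 for bone, and 11 to 13 higher and 0 to 3 lower in basal cells. The collagens called in the reported fits were followed over the other settings. Of their values by class, 243 stayed below the threshold and 23 did not, and in basal epithelium 157 did and 23 did not. Collagens that became called only under another setting are not in these counts.

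Some sums were small, with as few as 11 mural cells and 15 neurons in a library. On simulated counts for cartilage, with a spread set by hand, 2 of 100 genes changed 2-fold were recovered, against 90 of 100 changed 4-fold. Skeletal muscle entered the fit with 1 sum, from WT replicate 1, and was assumed to vary like the other classes. Between 48.1% and 55.5% of cells per library were ungated.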

Other observations

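The ungated cells held collagens at mesenchymal levels: their collagen share of UMIs was 0.613% ± 0.0312 (SD, n = 4), against 0.548% in other mesenchyme, and they held 47.8% of all Col1a1 UMIs and 59.4% of all Col3a1 UMIs of the WT libraries. Bone cells, fewer in number, held 26.9% of Col1a1 UMIs, a pooled share that rests mostly on WT replicate 1. Bone held 50268, 9297, 1780 and 2535 Col1a1 UMIs in WT replicates 1, 2, 4 and 5, and ungated cells 54976, 22282, 18584 and 17423.

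Cartilage collagens in immune cells were uneven between libraries. In immune cells of WT replicate 2, Col2a1 stood at 128 CPM, Col9a1 at 71.5 CPM and Col9a3 at 60.5 CPM, whereas the other 3 WT libraries had at most 17.6, 6.39 and 11.03 CPM.

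Neighbouring collagen genes did not all have their highest mean in the same class. Col9a1, which marked cartilage, lies 9205 bases from Col19a1, whose highest mean was in glia. Col3a1 lies 24614 bases from Col5a2, which marked bone.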
